A study of Mus musculus with 48 samples.

Results

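A set of 10 genes of the integrated stress response were followed in RAW264.7 cells, a mouse macrophage line. They were chosen by symbol from the table of read counts, where all 10 of them are among 49568 genes: Atf4, Ddit3, Trib3, Chac1, Asns, Psat1, Phgdh, Sesn2, Atf3 and Ppp1r15a. The choice was made with earlier results of these data known. The cells were exposed for 72 h, with the medium refreshed at 48 h, to PBS or to a synthetic peptide taken from HLA-DRβ, a human antigen-presenting protein, and IFN-γ was added in 4 of 8 groups. IFN-γ is the cytokine that activates macrophages. The peptide LE comes from an allele tied to risk of lupus, SE from one tied to risk of rheumatoid arthritis, and PE from alleles tied to protection. The 8 groups are these: PBS, LE, SE and PE at 100 µg/ml without the cytokine, and IFNy (5 ng/ml), LE+IFNy, SE+IFNy and PE+IFNy at the same doses. All groups are the same mouse line, and in the 6 groups with a peptide it was added to the medium rather than expressed by the cells as part of the HLA-DR protein.

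The integrated stress response starts when a kinase that senses stress phosphorylates the translation factor eIF2, which lowers protein synthesis in general and raises translation of Atf4. The ATF4 protein then switches on genes for amino acid uptake and synthesis, and also Ddit3, which encodes CHOP, a transcription factor tied to cell death when stress persists. Trib3 and Ppp1r15a act as brakes, the first on ATF4 and CHOP and the second by restoring unphosphorylated eIF2. Since ATF4 is controlled largely at translation, its messenger RNA level is not a measure of its protein.

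The values below come from 24 libraries, 3 in each of 8 groups, whose labels carry a letter. Their total counts ran from 16.5 to 26.9 M (median 22.9 M; M stands for 1e+06), and the 10 genes had between 419 and 36176 counts in a library. Another 24 libraries carry labels beginning with HLA (14.1 to 42.6 M counts). As a check of the labels, the mean log2 CPM (counts per 1e+06 counts of the library, here with 0.5 counts added) of 23 IFN-γ target genes was 6.80 to 7.15 in the 12 letter libraries labelled with IFN-γ and 1.24 to 1.67 in the 12 labelled without it. In the HLA libraries 12 of 24 went against their label. The columns of the deposited table stand in 8 blocks of 3 letter and 3 HLA libraries, whose labels are the same in 0 of 8 blocks and whose IFN-γ target state is the same in 8 of 8. Apart from this IFN-γ target check, whether the HLA labels name the treatment those libraries received was not tested, and no library was regrouped. The comparisons rest on the letter libraries, and values with the HLA libraries added are given with the alternatives at the end. All 8 macrophage markers were present (summed 6582 to 11417 CPM), while markers of other cell types summed to at most 0.371 CPM. In a bulk sample, fewer cells with a transcript and less of it per cell cannot be told apart.

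Of the 10 genes, 4 hold the core of the C/EBP-ATF response element, to which ATF4 and CHOP can bind as dimers with C/EBP proteins, in the window from 250 bases before to 50 bases after a RefSeq transcription start (GRCm38.p6). The letters searched were TGATGNAA, on either strand (TTNCATCA on the other), with no overlap with another motif searched. Matches were found in 4 of 10 genes (40.0%), against 1219 of 27025 genes with a window (4.51%). The windows of Trib3 (chr2:152344011-152344310, minus strand), Chac1 (chr2:119350992-119351291, plus strand), Asns (chr6:7693160-7693459, minus strand) and Atf3 (chr1:191183284-191183583, minus strand) are shown because they hold the match, which is in capitals. Each runs 5′ to 3′ in the gene's direction.
Trib3: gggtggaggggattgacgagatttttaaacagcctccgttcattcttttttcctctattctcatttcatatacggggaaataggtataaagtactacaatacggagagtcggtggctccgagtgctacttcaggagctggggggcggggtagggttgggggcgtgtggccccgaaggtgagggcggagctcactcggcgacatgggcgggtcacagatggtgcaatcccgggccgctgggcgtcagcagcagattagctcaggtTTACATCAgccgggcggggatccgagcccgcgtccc
Chac1: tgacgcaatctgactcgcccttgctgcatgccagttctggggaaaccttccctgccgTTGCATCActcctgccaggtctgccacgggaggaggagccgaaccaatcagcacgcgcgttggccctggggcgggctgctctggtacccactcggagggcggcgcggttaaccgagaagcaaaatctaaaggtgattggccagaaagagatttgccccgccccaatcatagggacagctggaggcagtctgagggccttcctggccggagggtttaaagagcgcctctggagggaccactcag
Asns: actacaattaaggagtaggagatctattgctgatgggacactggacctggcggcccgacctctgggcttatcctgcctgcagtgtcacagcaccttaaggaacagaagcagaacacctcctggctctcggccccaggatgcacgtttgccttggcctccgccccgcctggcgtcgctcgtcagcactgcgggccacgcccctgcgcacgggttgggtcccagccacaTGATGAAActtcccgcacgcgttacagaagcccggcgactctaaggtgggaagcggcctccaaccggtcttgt
Atf3: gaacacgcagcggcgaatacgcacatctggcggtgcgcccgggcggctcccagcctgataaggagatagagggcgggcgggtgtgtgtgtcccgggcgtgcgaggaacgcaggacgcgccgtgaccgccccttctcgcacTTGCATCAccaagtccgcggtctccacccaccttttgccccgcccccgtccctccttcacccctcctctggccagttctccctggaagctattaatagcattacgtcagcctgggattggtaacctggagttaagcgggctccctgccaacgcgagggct
The match starts 193 bases before the start in Chac1, 110 before it in Atf3, 23 before it in Asns and 14 after it in Trib3. It is TTGCATCA in Chac1 and Atf3, TTACATCA in Trib3, and TGATGAAA in Asns, the latter on the gene's own strand. The other 6 genes had no match in these windows, which says nothing of sites elsewhere. These 4 genes differed in their response, as described next: Atf3, Trib3 and Chac1 passed the 1.5-fold limit with IFN-γ, and Asns did not. Among the genes without a match, Ddit3, Ppp1r15a and Sesn2 also passed that limit, and Atf4, Psat1 and Phgdh did not.

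On a scale of CPM per kilobase of exon, which allows levels to be compared between genes, Ddit3 (474) and Atf4 (464) had the highest mean level over the 24 libraries, followed by Phgdh (199.6), Asns (164), Atf3 (157), Trib3 (145), Ppp1r15a (108), Psat1 (74.8), Sesn2 (42.3) and Chac1 (28.1). The difference between the highest and the lowest group mean was widest for Atf3, at 2.16 on the log2 CPM scale, and Ddit3, at 1.92. It was 1.62 for Ppp1r15a, 1.36 for Chac1, 1.24 for Trib3, 0.96 for Sesn2, 0.84 for Phgdh, 0.69 for Atf4, 0.44 for Asns and 0.20 for Psat1. Taking the 12 libraries with IFN-γ against the 12 without it, the CPM ranges did not overlap for 7 of 10 genes, all higher with IFN-γ, while 10% of 13094 genes were apart in that direction. The ranges overlapped for Phgdh, Sesn2 and Psat1. The plot of CPM by library shows these levels.

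**Figure D1:**
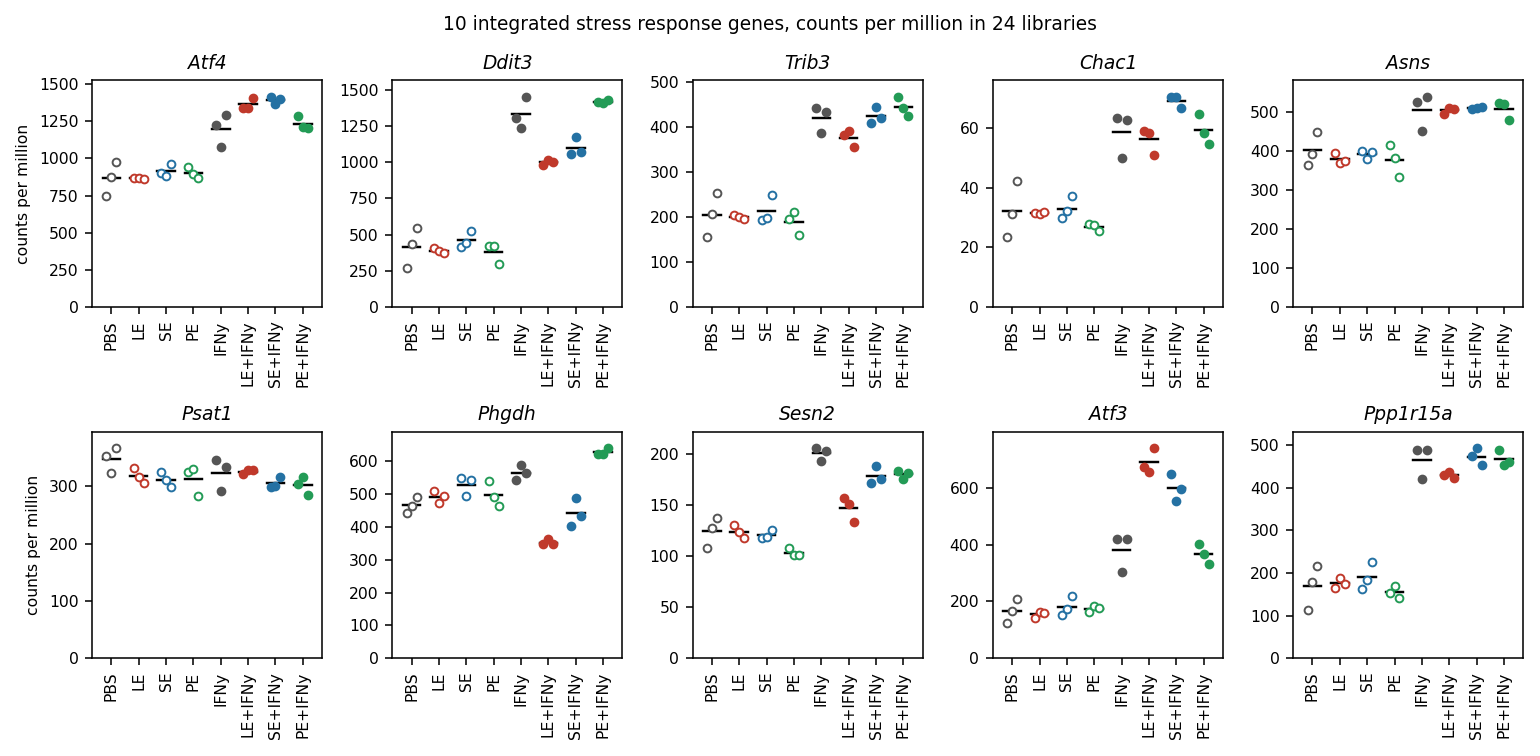
CPM of each gene (vertical axis, from 0) in 3 letter-labelled libraries of 8 groups (horizontal axis); open points are libraries without IFN-γ, filled points with it, and bars are group means. Atf3 is highest in LE+IFNy (657 to 738 CPM), Ddit3 in PE+IFNy and IFNy, and Phgdh is lowest in LE+IFNy (347 to 362 CPM), while Psat1 stays between 283 and 366 CPM in all 24 libraries.

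The first comparison asked how the genes respond to IFN-γ alone. Of the 10 genes, 9 rose in IFNy against PBS at an adjusted p under 0.05, and 6 of them were called, that is, also changed by more than 1.5-fold, in edgeR's quasi-likelihood test of 12242 genes. Over all genes 39.7% passed the adjusted p (20.2% higher), 18.1% were called and 9.79% were called higher. The median log2 fold change of the 10 genes was 0.79, beside -0.01 over all genes tested. Since the 10 genes were chosen with earlier results of these data known, their shares beside all genes are a description and not a test.

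Among the transcription factors, Ddit3 (a protein-coding gene, as all 10 are, at chr10:127290774-127296288, plus strand, of GRCm38, the build of all positions) had 269, 431 and 547 CPM in the PBS libraries and 1309, 1235 and 1451 CPM in the IFNy libraries. The groups did not overlap, and the PBS libraries differed among themselves by more than the IFNy libraries did. Its log2 fold change was 1.69 ± 0.20 (here and below, ± is the standard error of the fit; adjusted p = 4.98e-05 by edgeR), and 1.46 without PBS replicate 1, the lowest library. Ddit3 overlaps the Mars gene on the other strand over 68 bases (Mars at a mean of 192 CPM), and whether the counting used strand is not given in the sources used here. Atf3 (chr1:191170296-191218039, minus strand), a stress-induced factor that acts with ATF4 and CHOP, had 125, 168 and 208 CPM with PBS and 418, 302 and 419 with IFNy. All 3 IFNy libraries were above all 3 PBS libraries, with IFNy replicate 2 well below the others. The log2 fold change of Atf3 was 1.203 ± 0.171 (adjusted p = 0.000196 by edgeR). Atf4 (chr15:80255184-80257541, plus strand) itself had 747, 877 and 977 CPM with PBS and 1223, 1079.6 and 1296 with IFNy, again without overlap. It rose by 0.48 ± 0.11 on the log2 scale (1.40-fold, adjusted p = 0.00418 by edgeR), which is under the 1.5-fold limit.

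The brakes on the response rose as well. Ppp1r15a (GADD34, the subunit that directs a phosphatase to eIF2; chr7:45522916-45526268, minus strand) had 114, 179 and 217 CPM with PBS and 488, 421 and 489 with IFNy. Its groups were far apart, and the log2 fold change was 1.47 ± 0.18 (adjusted p = 7.04e-05 by edgeR). Trib3 (a pseudokinase that binds ATF4 and CHOP; chr2:152337422-152344032, minus strand) had 156, 206 and 253 CPM with PBS and 442, 386 and 433 with IFNy, a log2 fold change of 1.05 ± 0.14 (adjusted p = 0.000148 by edgeR).

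Of the effector genes, Chac1 (an enzyme that breaks down glutathione; chr2:119351229-119354381, plus strand) had 23.5, 31.1 and 42.3 CPM with PBS and 63.5, 50.1 and 62.8 with IFNy. It was the least abundant of the 10 genes per kilobase and rose by 0.88 ± 0.18 on the log2 scale (adjusted p = 0.00203 by edgeR). Sesn2 (sestrin 2, an inhibitor of the growth kinase mTORC1 that senses leucine; chr4:132492032-132510501, minus strand) had 108, 128 and 137 CPM with PBS and 205, 193 and 202 with IFNy, and rose by 0.71 ± 0.09 (adjusted p = 9.07e-05 by edgeR). Neither gene had overlapping groups.

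The genes of amino acid synthesis moved least. Asns (asparagine synthetase; chr6:7675169-7693254, minus strand) rose by 0.34 ± 0.10 on the log2 scale (adjusted p = 0.0157 by edgeR), from 363, 393 and 450.1 CPM to 525, 450.3 and 539 CPM. Its highest PBS library and its lowest IFNy library were practically level, and it no longer passed when PBS replicate 2, IFNy replicate 1 or IFNy replicate 3 was left out (adjusted p 0.0525 to 0.0790 by edgeR). Phgdh (phosphoglycerate dehydrogenase, the entry enzyme of serine synthesis; chr3:98313170-98339990, minus strand) rose by 0.30 ± 0.07 (adjusted p = 0.00783 by edgeR), from 443, 463 and 490.4 CPM to 543, 588 and 565 CPM. Psat1 (phosphoserine aminotransferase, the next enzyme of the same path; chr19:15904678-15947337, minus strand) did not pass, at -0.08 (95% interval -0.26 to 0.09, adjusted p = 0.438 by edgeR), with 352, 323 and 366 CPM beside 346, 292 and 333 CPM.

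The order of the libraries within PBS and IFNy was much the same from gene to gene. PBS replicate 1 was the lowest of its group for 9 of 10 genes and PBS replicate 3 the highest for 10 of 10, and IFNy replicate 2 was the lowest of its group for 9 of 10. Their part in the fold changes was measured by leaving each out: all 6 calls held without PBS replicate 1, with fold changes 0.61 (Sesn2) to 1.46 (Ddit3) on the log2 scale. The study calls its libraries biological replicates and reports fewer independent experiments than replicates, so some libraries share an experiment. Which ones do is not given by the labels. The letter libraries of a group thus cannot be taken as separate experiments. The labels do not say which letter libraries are separate cultures, so p-values measure the spread between these libraries.

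Without IFN-γ, the peptides left the 10 genes near the PBS level. None was called with LE, SE or PE against PBS in edgeR or in DESeq2, where 0.0242%, 1.92% and 3.13% of 12420 genes were called in edgeR and 0.0242%, 14.3% and 20.0% passed the adjusted p. At an unadjusted p under 0.05 there were 0 genes with LE, 1 with SE and 2 with PE. Phgdh with SE was the single gene past the adjusted threshold, which 7.77% of all genes passed as higher, at 548, 494 and 543 CPM against 443, 463 and 490.4 with PBS, a log2 fold change of 0.26 ± 0.07 (adjusted p = 0.0331 by edgeR). All 3 SE libraries were above all 3 PBS libraries, but the result did not pass without PBS replicate 1, PBS replicate 2, SE replicate 1 or SE replicate 3 (adjusted p 0.0669 to 0.132 by edgeR). The 95% intervals of the 10 log2 fold changes reached from -0.47 to 0.47 with LE, from -0.23 to 0.62 with SE and from -0.51 to 0.49 with PE, so moderate differences in the more variable genes were not detectable with 3 libraries a group. Between the peptides, also without IFN-γ, no gene passed in the 3 comparisons (LE against SE, LE against PE and SE against PE), for which edgeR called 0%, 0.0242% and 0.0322% of all genes (0.00805%, 0.0403% and 0.0483% by adjusted p) and DESeq2 none of the 10. At an unadjusted p under 0.05 there were 0, 1 and 1 of the 10. The lowest unadjusted p-values of these comparisons were those of Sesn2, which had 107, 100.6 and 100.9 CPM with PE, 130.0, 124 and 118 with LE and 118, 119 and 126 with SE. Its log2 differences were 0.22 ± 0.08 for LE against PE (adjusted p = 0.339 by edgeR) and 0.22 ± 0.08 for SE against PE (adjusted p = 0.799 by edgeR).

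In cells given IFN-γ, some of the 10 genes passed the threshold with LE or SE, and none did with PE. LE+IFNy was higher than IFNy for Atf3 and Atf4 and lower for Phgdh, Sesn2 and Ddit3, and Atf3 and Phgdh were called, against 15.5% of 12720 genes. Over all genes, 50.5% passed the adjusted p there, 25.7% higher and 24.8% lower. The 2 higher and 3 lower of the 10 genes are near those shares. SE+IFNy was higher for Atf3, Chac1 and Atf4 and lower for Phgdh and Ddit3, and only Atf3 was called, against 7.39% of all genes. Over all genes 33.4% passed the adjusted p there, 16.7% higher and 16.6% lower. PE+IFNy gave 0 of 10 past the threshold in edgeR, with 2 at an unadjusted p under 0.05, 0 called in DESeq2 and 0.629% of all genes called and 10% past the adjusted p in edgeR. The median log2 fold changes of the 10 genes were -0.07 with LE, 0.04 with SE and 0.04 with PE, beside -0.01, -0.01 and -0.004 over all genes. The share of the 10 genes called was thus close to the share over all genes in each of these 3 comparisons, which use the same IFNy libraries.

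Atf3 had 672, 657 and 738 CPM in LE+IFNy and 647, 552 and 596 in SE+IFNy, beside 418, 302 and 419 in IFNy and 403, 365 and 333 in PE+IFNy. Every LE+IFNy and SE+IFNy library was above every IFNy and PE+IFNy library. The log2 fold change against IFNy was 0.87 ± 0.10 with LE (adjusted p = 1.69e-06 by edgeR), 0.68 ± 0.10 with SE (adjusted p = 5.8e-05 by edgeR) and -0.02 with PE (95% interval -0.24 to 0.19). Without IFNy replicate 2 the value with SE was 0.54, which is under the 1.5-fold limit, and that with LE was 0.73.

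Phgdh went the other way. It had 347, 362 and 347 CPM in LE+IFNy and 402, 488 and 433 in SE+IFNy, beside 543, 588 and 565 in IFNy and 624, 622 and 639 in PE+IFNy. The LE+IFNy libraries were the lowest of all 24 for Phgdh, also below PBS, and the PE+IFNy libraries were the highest. Its log2 fold change against IFNy was -0.67 ± 0.06 with LE (1.59-fold lower, adjusted p = 9.12e-08 by edgeR), -0.33 ± 0.06 with SE (adjusted p = 0.000371 by edgeR) and 0.18 ± 0.06 with PE (adjusted p = 0.0649 by edgeR). Psat1, the next enzyme of the path, had log2 fold changes of 0.02 with LE, -0.06 with SE and -0.07 with PE, and none passed.

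Ddit3 had 984, 1015 and 1003 CPM in LE+IFNy and 1059.8, 1171 and 1072 in SE+IFNy, all below the 1235 to 1451 CPM of IFNy. It fell by 0.40 on the log2 scale with LE (standard error 0.06, adjusted p = 3.14e-05 by edgeR) and by 0.25 with SE (standard error 0.06, adjusted p = 0.00403 by edgeR). The value with SE was -0.17 without IFNy replicate 3 and still passed, but did not pass in 1 fit of all 8 groups (adjusted p = 0.277 by edgeR). In PE+IFNy it had 1414, 1409.7 and 1432 CPM, a log2 difference of 0.12 (adjusted p = 0.216 by edgeR). Sesn2 had 157, 151 and 133 CPM in LE+IFNy against 205, 193 and 202 in IFNy, and fell by 0.43 (standard error 0.06, adjusted p = 7.9e-06 by edgeR). With SE (171, 188 and 175 CPM) and PE (183, 175 and 181 CPM) the Sesn2 differences were -0.14 and -0.13, and neither passed. Every library of SE+IFNy and PE+IFNy was nonetheless below every IFNy library for Sesn2.

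Atf4 was higher in LE+IFNy (1343, 1343 and 1406 CPM) and SE+IFNy (1414, 1365 and 1401 CPM) than in IFNy, with log2 fold changes of 0.20 ± 0.06 (adjusted p = 0.0116 by edgeR) and 0.24 ± 0.06 (adjusted p = 0.00543 by edgeR). Both lay outside the range of IFNy, but the value with LE did not pass without IFNy replicate 2 (0.12, adjusted p = 0.0646 by edgeR) or LE+IFNy replicate 3 (0.17, adjusted p = 0.0564 by edgeR). Chac1 rose in SE+IFNy to 70.4, 70.6 and 66.9 CPM, a log2 fold change of 0.26 ± 0.08 (adjusted p = 0.0226 by edgeR), and did not pass without IFNy replicate 2, SE+IFNy replicate 1 or SE+IFNy replicate 2 (adjusted p 0.0619 to 0.116 by edgeR), or in the fit of 8 groups (adjusted p = 0.138 by edgeR). Trib3 with LE missed the threshold at -0.14 ± 0.06 (adjusted p = 0.0507 by edgeR). For Ppp1r15a and Asns the log2 differences lay between -0.10 and 0.05 with the 3 peptides and none passed. The plot of peptide effects shows these values with their intervals.

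**Figure D2:**
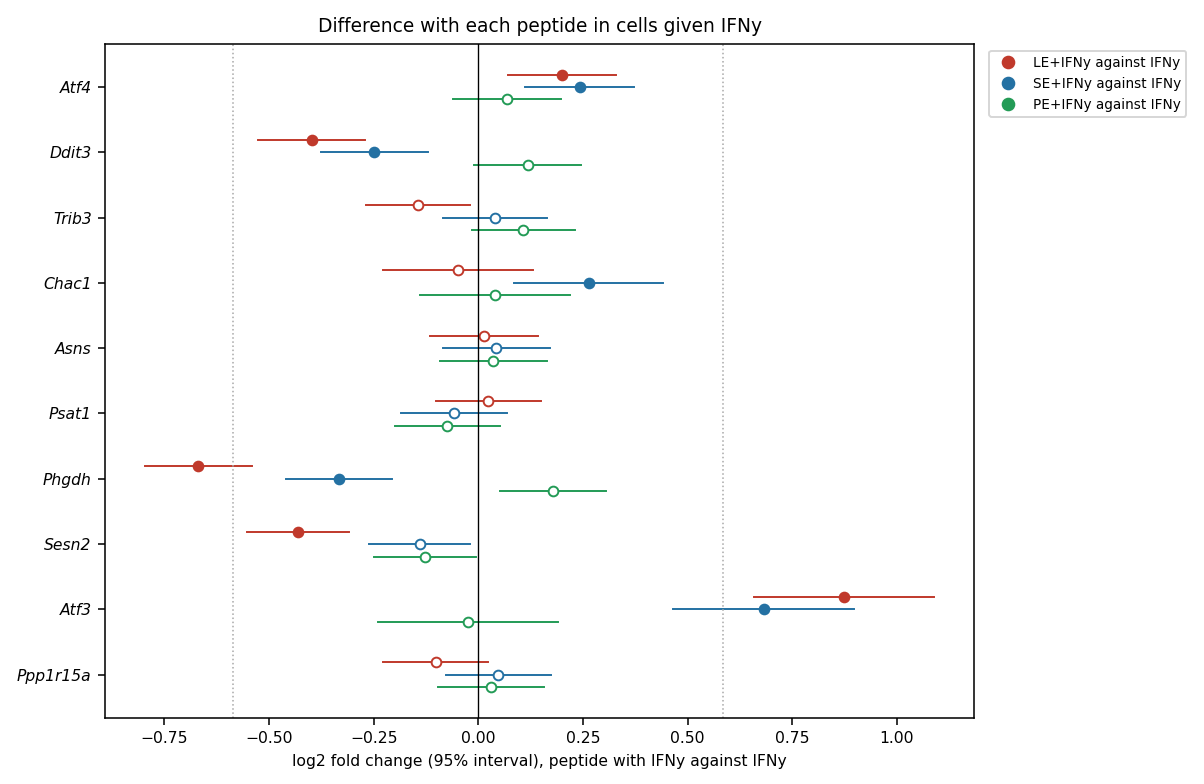
Log2 fold change of each peptide with IFN-γ against IFN-γ alone (horizontal axis) for the 10 genes (vertical axis), with 95% intervals from edgeR; filled points passed an adjusted p of 0.05, open points did not, and dotted lines mark 1.5-fold. Atf3 is past the line with LE (0.87) and SE (0.68), Phgdh with LE (-0.67), and no point of PE is filled.

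Over all genes, the log2 fold change in LE+IFNy against IFNy moved with exon length (Spearman's rho 0.21 over 12368 genes, which share the libraries). The rho was of the other sign for the peptides alone against PBS (-0.37 with LE, -0.44 with SE and -0.45 with PE, over 12089 genes) and for PE+IFNy against IFNy (-0.39). With the trend on length subtracted, Atf3 was at 0.99, Phgdh at -0.56, Sesn2 at -0.37, Ddit3 at -0.27 and Atf4 at 0.31, so the direction of each held and Phgdh came under the 1.5-fold limit. Among the values past the threshold, the subtraction moved a further 6 by over 1.5 times: Phgdh in SE against PBS to 0.16, Trib3 to -0.07 and Chac1 to -0.17 in LE+IFNy against SE+IFNy, Ddit3 to -0.29 and Trib3 to -0.05 in LE+IFNy against PE+IFNy, and Atf4 to 0.26 in SE+IFNy against PE+IFNy. Phgdh in the SE interaction, described further on, went from -0.59 to -0.48, under the 1.5-fold limit. The part of length in these values was not tested.

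The peptides were then set against each other at the same dose and time with IFN-γ, in 3 pairs. LE+IFNy was lower than SE+IFNy for 4 genes, and none of the 10 was called by edgeR or DESeq2 (6 had an unadjusted p under 0.05), against 4.93% of all genes called, 35.6% past the adjusted p and 16.5% past it as lower. These were Phgdh at -0.34 ± 0.06 (adjusted p = 0.000547), Sesn2 at -0.29 ± 0.06 (adjusted p = 0.00111), Chac1 at -0.31 ± 0.08 (adjusted p = 0.00887) and Trib3 at -0.18 ± 0.06 (adjusted p = 0.0224), all by edgeR. In the fit of 8 groups Chac1 and Trib3 did not pass (adjusted p = 0.0768 and 0.250 by edgeR). Atf3 differed by 0.19 (95% interval -0.02 to 0.41, adjusted p = 0.148 by edgeR), although all 3 LE+IFNy libraries were above the SE+IFNy libraries. Ddit3 was at -0.15 and Ppp1r15a at -0.15, and Atf4, Asns and Psat1 were between -0.04 and 0.08, none of them past the threshold.

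LE+IFNy against PE+IFNy gave 5 of 10 genes past the threshold and 2 called, where 59.9% of all genes passed and 21.6% were called. Atf3 was higher by 0.90 ± 0.10 (adjusted p = 8.86e-07 by edgeR) and Phgdh lower, at -0.85 ± 0.06 (1.80-fold, adjusted p = 5.01e-09 by edgeR). Ddit3 was lower at -0.52 ± 0.06 (adjusted p = 1.27e-06 by edgeR), Sesn2 at -0.30 ± 0.06 and Trib3 at -0.25 ± 0.06, of which Trib3 did not pass in the fit of 8 groups (adjusted p = 0.0827 by edgeR). SE+IFNy against PE+IFNy also gave 5 of 10 past the threshold, with 1 called, beside 34.4% and 7.59% of all genes. Atf3 was higher by 0.70 ± 0.10 (adjusted p = 4.2e-05 by edgeR), and Phgdh (-0.51 ± 0.06) and Ddit3 (-0.37 ± 0.06) were lower. Chac1 (0.22) and Atf4 (0.17) were slightly higher in SE+IFNy, and leaving out single libraries kept them past the threshold in 1 of 6 and 2 of 6 cases. In the fit of 8 groups Ddit3, Chac1 and Atf4 did not pass (adjusted p = 0.0917, 0.199 and 0.0932 by edgeR). The intervals of the differences that did not pass reached from -0.27 to 0.26 for LE against PE and from -0.19 to 0.14 for SE against PE.

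The response to IFN-γ was also taken within each peptide, as peptide with IFN-γ against the same peptide alone. Of the 10 genes, 8 rose and Phgdh fell with LE, 8 rose and Phgdh fell with SE, and 9 rose with PE. The called genes numbered 6, 5 and 6, beside 35.1%, 26.3% and 21% of 12947 genes (19.1%, 15.1% and 12.1% called higher). By adjusted p, 65.9%, 57.5% and 49.9% of all genes passed, of which the higher ones made up 33.2%, 28.7% and 25.4% of all genes. The median log2 fold change of the 10 genes was 0.72 with LE, 0.75 with SE and 0.89 with PE. Psat1 did not pass in any of these comparisons (-0.10 to 0.01).

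Ddit3 rose by 1.35 ± 0.10 with LE, 1.22 ± 0.10 with SE and 1.85 ± 0.10 with PE, and its libraries without IFN-γ lay at 406, 386 and 369 CPM (LE), 413, 442 and 521 CPM (SE) and 419.8, 423 and 295 CPM (PE). Atf3 rose by 2.14 ± 0.11 with LE, from 141, 162 and 159 CPM, by 1.68 ± 0.11 with SE, from 151, 175 and 219 CPM, and by 1.03 ± 0.11 with PE, from 162, 184 and 175 CPM. Without IFN-γ, the Ddit3 values of LE and PE overlapped while those of LE lay just below those of SE, and the Atf3 values of LE lay just below those of PE. With IFN-γ, neither gene overlapped between LE and PE. Phgdh started at 509.8, 472 and 495 CPM with LE, 548, 494 and 543 with SE and 539, 491 and 462 with PE. It fell by 0.51 with LE (standard error 0.07, adjusted p = 1.92e-06 by edgeR) and by 0.30 with SE (standard error 0.07, adjusted p = 0.000852 by edgeR), and rose by 0.29 with PE (standard error 0.07, adjusted p = 0.0018 by edgeR). Sesn2 rose by 0.23 with LE, 0.52 with SE and 0.75 with PE. Atf4 rose by 0.63 with LE, past the 1.5-fold limit, and by 0.56 with SE and 0.40 with PE, under it. Ppp1r15a (1.27, 1.27 and 1.55), Trib3 (0.89, 0.95 and 1.19), Chac1 (0.81, 1.03 and 1.09) and Asns (0.39, 0.34 and 0.38) rose with each of LE, SE and PE in that order. The plot of IFN-γ effects sets these beside IFNy against PBS.

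**Figure D3:**
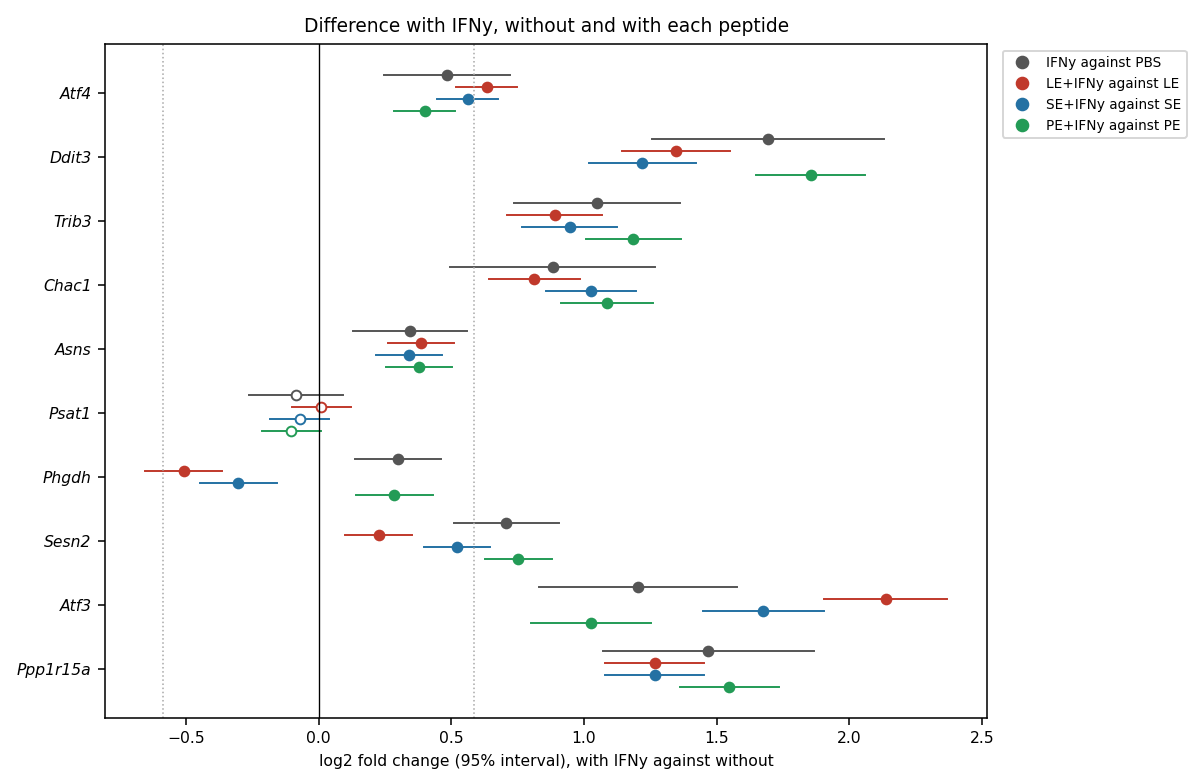
Log2 fold change with IFN-γ against without it (horizontal axis) for the 10 genes (vertical axis), in cells with PBS, LE, SE or PE, with 95% intervals from edgeR; filled points passed an adjusted p of 0.05 and dotted lines mark 1.5-fold. Phgdh lies at -0.51 with LE and -0.30 with SE but at 0.30 with PBS and 0.29 with PE, and Atf3 runs from 1.03 with PE to 2.14 with LE.

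Whether the effect of a peptide differs with IFN-γ was tested as an interaction in a fit of all 8 groups. With LE, 3 of 10 genes passed and 2 were called, beside 18.9% of 13096 genes called and 38.5% past the adjusted p. The interaction was 0.93 ± 0.21 for Atf3 (adjusted p = 0.0012 by edgeR), -0.81 ± 0.10 for Phgdh (adjusted p = 1.5e-06 by edgeR) and -0.48 ± 0.10 for Sesn2 (adjusted p = 0.000771 by edgeR), each in log2 units, and all 3 passed whichever of the 12 libraries was left out. With SE, Phgdh passed, at -0.59 ± 0.10 (adjusted p = 0.00016 by edgeR), beside 19.8% of all genes past the adjusted p and 7.96% called. It was called by a narrow margin, and 2 genes were called without PBS replicate 3 and 0 without SE replicate 1, IFNy replicate 2, IFNy replicate 3 or SE+IFNy replicate 1. With PE none of the 10 passed in edgeR and none was called in DESeq2, none had an unadjusted p under 0.05, and 0% of all genes were called. The Ddit3 interaction did not pass with LE (-0.35 ± 0.22, adjusted p = 0.222 by edgeR) or SE (-0.47 ± 0.22, adjusted p = 0.135 by edgeR). The Atf3 interaction with SE had the same direction as with LE but did not pass (0.48 ± 0.21, adjusted p = 0.110 by edgeR).

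The wider pathway was followed with 71 further genes in 8 lists, of which 68 were tested in IFNy against PBS. There 34 rose and 9 fell, 13 were called higher and 1 lower, beside 39.7% of all genes passing and 18.1% called. Nupr1 (a small stress-induced cofactor of transcription) had 59.8, 80.6 and 104 CPM with PBS and 250.3, 233 and 289.8 with IFNy, a log2 fold change of 1.68 ± 0.17. Gadd45a (a growth arrest protein) rose by 1.54 ± 0.12 and Cth (cystathionine gamma-lyase, which makes cysteine) by 1.48 ± 0.10, and the adjusted p of these 3 genes was at most 1.33e-05 by edgeR. Of 8 tested amino acid carriers, 6 rose and 2 fell, with a list median of 0.74. Of 13 aminoacyl-tRNA synthetase and tRNA export genes, 6 rose and 1 fell and none was called. All 4 eIF2 kinases, the enzymes at the top of the response, fell, with a median of -0.45, and Eif2ak3 (PERK, the kinase of the endoplasmic reticulum) was called at -0.64 ± 0.09 (adjusted p = 0.000205 by edgeR), from 58.2, 49.3 and 52.4 CPM to 35.9, 35.3 and 30.2. The Eif2ak3 groups did not overlap.

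With LE+IFNy against IFNy, 11 of 69 tested genes rose and 28 fell, where 25.7% of all genes rose and 24.8% fell. The called genes were 4 higher and 9 lower, 13 of 69 in all, beside 15.5% of all genes. Slc7a11, the cystine carrier, was higher at 274, 255 and 245 CPM against 136, 121 and 120 (1.05 ± 0.07, adjusted p = 5.16e-09 by edgeR). Gdf15, a stress-induced hormone, was higher by 0.88 ± 0.07 and Bcl2l11 (BIM, a promoter of apoptosis) by 0.74 ± 0.07. In the list of the parallel IRE1 and ATF6 arms of the response to unfolded proteins, 2 genes rose and 8 of 13 fell, with a list median of -0.53. The 3 genes furthest down were Creld2 (-1.25 ± 0.06), Sdf2l1 (-1.07 ± 0.07) and Pdia4 (-0.99 ± 0.05), which act in the folding of proteins in the endoplasmic reticulum, with adjusted p-values of at most 9.62e-10 by edgeR. Creld2 had 523, 538 and 461 CPM in LE+IFNy, below the 601, 793 and 901 CPM of PBS. In the list of amino acid and one-carbon synthesis, to which Phgdh and Psat1 belong by function, 1 of 10 genes rose and 5 fell, with a median of -0.18, and 3 were called: Aldh1l2 (-0.97), Pycr1 (-0.95) and Psph (-0.67), the last step of serine synthesis. These 3 genes were named after their values were seen. Psph had 102, 107 and 104 CPM in LE+IFNy and 167, 162 and 174 in IFNy. Phgdh and Psph, the first and last enzymes of the serine path, were thus both lower with LE, and Psat1 between them had a difference of 0.02 (95% interval -0.10 to 0.15). In SE+IFNy, where Phgdh was also lower (-0.33), Psph had 115, 129 and 121 CPM, again below every IFNy library. In PE+IFNy Psph had 171, 177 and 171 CPM.

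With SE+IFNy against IFNy, 13 of 69 rose and 30 fell, with 3 called higher and 6 lower, beside 33.4% of all genes passing and 7.39% called. In the IRE1 and ATF6 list 2 genes rose and 10 of 13 fell, with a median of -0.52, and in the list of amino acid and one-carbon synthesis 0 of 10 rose and 6 fell, with a median of -0.27. Slc7a11 (0.68 ± 0.07), Ern1 (IRE1, a sensor of unfolded proteins, 0.65 ± 0.08) and Bcl2l11 (0.63 ± 0.07) were the highest, and Eif2ak3 (-0.75 ± 0.08), Hsp90b1 (an endoplasmic reticulum chaperone, -0.71 ± 0.06) and Creld2 (-0.67 ± 0.06) the lowest. Eif2ak3 had 19.4, 19.9 and 19.9 CPM there. Without IFN-γ, 3 of the 69 were called lower with PE against PBS (Ern1 at -0.66, Dnajb9 at -0.65 and Slc7a11 at -0.61). Over all genes, 308 of 12420 were called lower there. None of the 69 was called with LE or SE, beside 0.0242% and 1.92% of all genes. By adjusted p alone, 0 of the 69 passed with LE against PBS. With SE against PBS 3 rose and 6 fell, and with PE against PBS 3 rose and 15 fell. Over all genes 0.0242%, 14.3% and 20.0% passed with LE, SE and PE. Among the 4 eIF2 kinases, 2 fell with SE and 2 with PE. In PE+IFNy against IFNy, 5 rose and 6 fell and none was called, beside 10% of all genes passing and 0.629% called. LE+IFNy against SE+IFNy gave 11 higher and 22 lower, none of them called, beside 35.6% of all genes passing and 4.93% called. LE+IFNy against PE+IFNy gave 4 called higher and 10 lower, beside 21.6% of all genes called, led by Slc7a11 (1.21 ± 0.07) and by Pycr1 (an enzyme of proline synthesis, -1.26 ± 0.10). The plot of the wider lists shows these side by side.

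**Figure D4:**
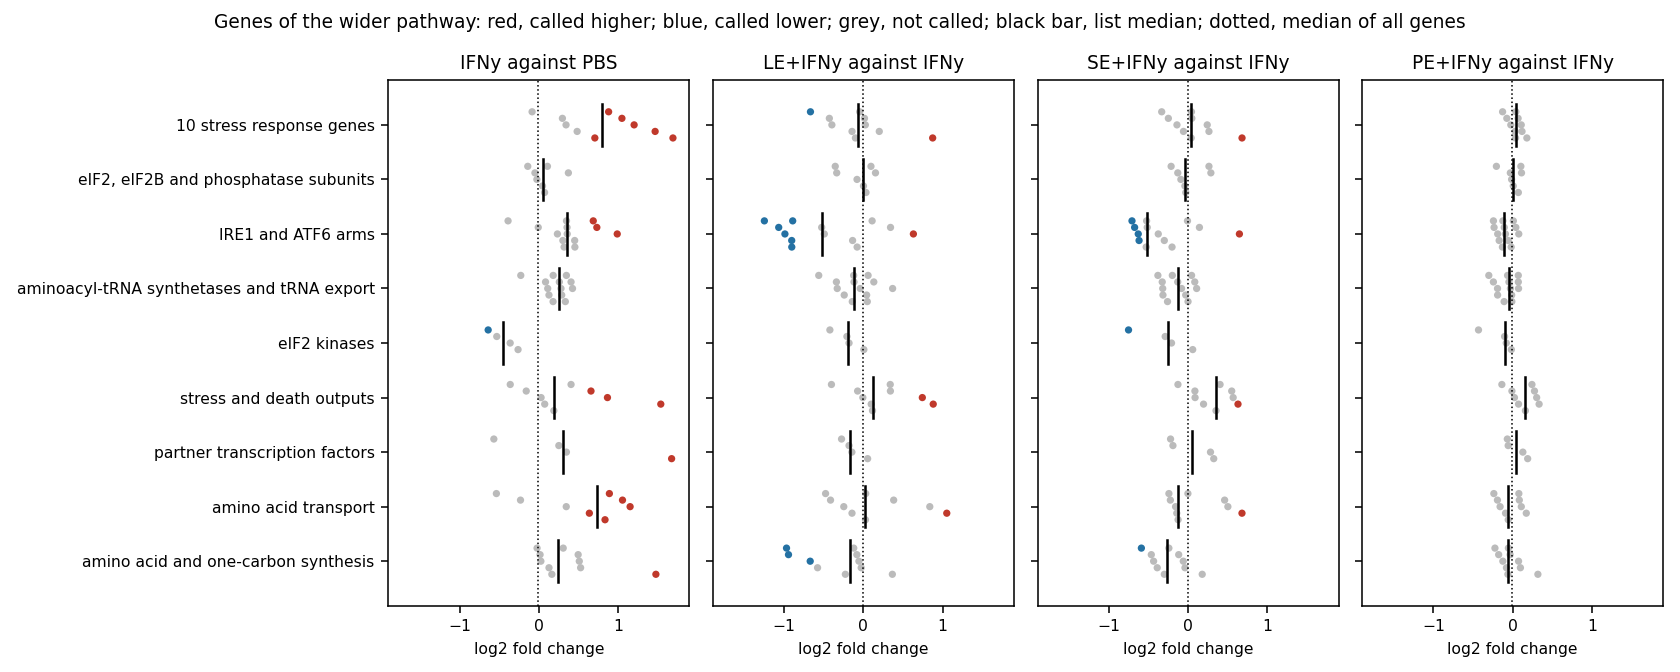
Log2 fold change (horizontal axis) of each gene of the 10 and of 8 wider lists (rows) in 4 comparisons; red points were called higher, blue lower and grey not called, the black bar is the median of the list and the dotted line the median of all genes. With IFN-γ the 10 genes (median 0.79) and the amino acid carriers (0.74) lie to the right and the eIF2 kinases (-0.45) to the left, and with LE or SE added the IRE1 and ATF6 arms lie to the left (-0.53 and -0.52).

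For the 5 genes whose group means spanned more than 1 log2 unit, the genes of most similar pattern were found as those with the smallest root mean square difference of centred log2 CPM over the 8 group means, among 9581 genes of at least 5 CPM. For Ddit3 the nearest was Nupr1 (0.0437), followed by Hap1 (0.0968) and Aoah (0.0989). For Ppp1r15a these were Ciart (0.0431), H2-D1 (0.0793) and Gadd45a (0.0863), and for Trib3 they were Slc7a7 (0.0525), Slc25a33 (0.0688) and Mndal (0.0688). Chac1 was nearest to Ms4a6d (0.0785), Abcc3 (0.0914) and Idnk (0.0943). Atf3 had the least similar neighbours, Dgkh (0.132), Osgin2 (0.155) and Snhg1 (0.157). Nupr1 thus followed Ddit3 through all 8 groups, at 205, 211 and 215 CPM in LE+IFNy and 283, 278 and 269 in PE+IFNy. These are descriptions over 8 means of the same libraries.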

How the data were processed

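Poly(A) RNA was made into stranded TruSeq libraries and read from 1 end by the authors. They counted uniquely aligned reads per gene with featureCounts on GENCODE M12 (GRCm38.p5). The deposited values are whole-number counts per gene, 49568 genes by 48 libraries, with no normalization. The aligner is not given in the sources used here.

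Groups came from the sample labels. The 24 letter-labelled libraries were fitted with edgeR 4.0.16 in R 4.3.3 (quasi-likelihood F test, TMM scaling, filterByExpr, Benjamini-Hochberg over all genes tested). A gene passed at an adjusted p under 0.05 and was called when its fold change was also over 1.5. In all, 19 comparisons were made in 5 fits, and the interactions used all 8 groups. The tests of LE+IFNy against IFNy and of IFNy against PBS were also run on simulated counts with known fold changes. Those counts were drawn independently for each library and gene. They hold no shared experiment and no common order of libraries, so they say nothing of such effects here. The other comparisons were not simulated. CPM values are counts per 1e+06 counts of the library's total. Exon lengths and positions are from GENCODE M21 (GRCm38), with the older of the overlapping entries named Ddit3, and promoters from RefSeq GRCm38.p6. No deposited column was without a sample.

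Of the wider lists, the text names, for each comparison, at most 3 called genes higher and 3 lower, those furthest from 0, beside all 10 members, and 3 further genes said to be named after their values were seen. Members and lists were chosen with earlier results of these data known. Replicate numbers were checked as pairs by correlating deviations from the group means. All 3 pairs exceeded 0.1 in 3 of 16 comparisons, those between peptides without IFN-γ, and the range was -0.10 to 0.23. Alternatives were DESeq2 1.42.0, RLE scaling, no filter on low counts, a replicate block, 1 fit of all groups, both label series with the series as a block, the HLA-labelled libraries alone, each library left out, and, added after seeing the data, a length trend subtracted.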

Additional observations from a re-analysis of the deposited data

Results flagged for a closer look

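Some effects of a peptide differed between cells with and without IFN-γ, by the interaction test of edgeR in the fit of all 8 groups. With LE this held for Atf3 (0.93 on the log2 scale), Phgdh (-0.81) and Sesn2 (-0.48), and with SE for Phgdh (-0.59). Without IFN-γ the corresponding differences from PBS did not pass for LE and were -0.07 for Atf3, 0.13 for Phgdh and 0.04 for Sesn2, while Phgdh with SE was at 0.26. PBS replicate 1 was the lowest PBS library for Atf3, Phgdh and Sesn2, and without it the LE values were 1.11 (Atf3), -0.76 (Phgdh) and -0.38 (Sesn2), each of which still passed. Without PBS replicate 3, the highest PBS library for these genes, the LE values were 0.74 (Atf3), -0.85 (Phgdh) and -0.56 (Sesn2), which also passed. With SE, the Atf3 interaction was 0.48, the same direction as with LE, and did not pass (adjusted p = 0.110 by edgeR).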

How the results depend on the processing

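In all, 65 fold changes of single genes passed the threshold. All 65 kept their direction and passed with DESeq2, with RLE scaling and without the filter on low counts. With the replicate block, pairing libraries by number, all 65 did too and no count of called genes changed, with 6 in IFNy against PBS and 2 in LE+IFNy against IFNy. In 1 fit of all 8 groups, 53 passed and 8 did not: Chac1 and Ddit3 in SE+IFNy against IFNy, Chac1 and Trib3 in LE+IFNy against SE+IFNy, Trib3 in LE+IFNy against PE+IFNy, and Chac1, Ddit3 and Atf4 in SE+IFNy against PE+IFNy. The 4 interactions use that fit already. Leaving out single libraries kept 390 of 414 values past the threshold. The number of genes called then ran from 0 to 1 for SE+IFNy against IFNy (0 without IFNy replicate 2), from 1 to 2 for SE+IFNy against PE+IFNy (2 without SE+IFNy replicate 2) and from 0 to 2 for the SE interaction. It ran from 6 to 7 for IFNy against PBS, from 5 to 6 for SE+IFNy against SE and from 2 to 3 for the LE interaction, and was constant elsewhere. Subtracting the length trend, with no test, reversed 0 of 65.

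Adding the HLA-labelled libraries, of which 12 of 24 go against their label, with the series as a block, left 8 of 65 past the threshold in the same direction. The genes called were then 0 for IFNy against PBS, 1 for LE against PBS, 1 for LE+IFNy against IFNy, 0 for SE+IFNy against IFNy, 2 for LE+IFNy against SE+IFNy, 0 for LE+IFNy against PE+IFNy, 0 for LE+IFNy against LE, 0 for SE+IFNy against SE, 1 for PE+IFNy against PE, and 0 for the LE and 0 for the SE interaction. The sign changed there for 10 values: Sesn2 (0.0164) and Ddit3 (0.549) in LE+IFNy against IFNy, Chac1 (0.162), Trib3 (0.362) and Sesn2 (0.0173) in LE+IFNy against SE+IFNy, Atf3 (-0.247), Chac1 (-0.178) and Atf4 (-0.0952) in SE+IFNy against PE+IFNy, Phgdh (0.172) in LE+IFNy against LE and Atf3 (-0.507) in the LE interaction. In the HLA-labelled libraries alone, LE+IFNy against PE+IFNy gave 0 called genes, with Phgdh at 0.0139 and Ddit3 at 0.146, and Phgdh was at -0.0848 in SE against PBS. Apart from the IFN-γ target check, whether the HLA labels name the treatment received was not tested. These values are thus given by label only and do not measure the stability of the results. The cause was not tested.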

Other observations

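In the HLA-labelled libraries, whose groups go against the IFN-γ target check in 12 of 24 cases, the genes had these levels by label. Atf3 had 534 to 669 CPM in libraries labelled LE and 357 to 434 in those labelled PE, whose IFN-γ targets were high, and 282 to 307 in those labelled LE+IFNy. It had 118 to 147 CPM in libraries labelled IFNy and 108 to 112 in those labelled SE+IFNy, whose IFN-γ targets were low. Phgdh had 227 to 235 CPM in libraries labelled LE, its lowest group there, and 403 to 426 in those labelled LE+IFNy, its highest by mean. By group mean, Ddit3 was highest in libraries labelled LE+IFNy, at 641 to 671 CPM, and lowest in those labelled SE+IFNy, at 179 to 209 CPM. Apart from the IFN-γ target check, whether the HLA labels name the treatment received was not tested, nor were these values.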
